A study of Mus musculus with 6 samples.

Results

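The cytosolic ribosomal protein genes, which encode the proteins of the ribosome outside mitochondria, were followed in human neuroblastoma xenografts treated with the CXCR4 inhibitor BL-8040. They were taken by symbol (RPL, RPS and RPLP followed by a number, RPSA and FAU) from the genes with a probe set of their own, and 58 of 18417 named genes met this rule, 36 of the large and 22 of the small subunit. Of 78 ribosomal protein genes with such symbols in human cells, another 11 shared all their probe sets with other symbols, among them RPL6, RPL21, RPS10 and RPS26, and 9 were not analysed here, among them RPLP0, RPSA and RPS27A. The rule used symbols and no difference between the groups, but it was chosen with earlier results of these data known.

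The tumours had grown from SK-N-BE(2), an established human neuroblastoma line, placed in the adrenal gland of mice of the NSG strain, which is without T, B and natural killer cells. In the BL-8040 group the drug was given under the skin at 400 µg on 14 consecutive days, from day 7 after injection, and the control group is labelled only as control, with what these mice received not given. Both groups thus share the cell line, the site and the host, 3 mice were taken per group, and RNA of each tumour was read on 1 Affymetrix Human Gene 1.0 ST array. Each array gave 1 log2 signal per probe set, and the correlation of any pair of arrays over the genes was 0.992 to 0.997.

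A ribosome joins a small subunit, which holds the messenger RNA and checks each codon, to a large subunit, which links the amino acids and lets the new chain out through a tunnel. Each subunit carries 1 copy of most of its proteins, so the cell makes them in matched amounts, and their messenger RNAs begin with a pyrimidine tract (the TOP motif) through which mTOR, the growth-sensing kinase, and the RNA-binding protein LARP1 set how much they are translated. MYCN, amplified in this line, is known to drive ribosome production in neuroblastoma. A transcript level on an array does not show how much of it is translated.

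The 9 measured neuroblastoma markers of 10 listed (such as TH, DBH, HAND2 and MYCN) lay between percentiles 71.9 and 99.9 of all genes by mean signal, and no marker was at 0, since array signals have no true zero. The 5 endothelial markers lay at or below percentile 34.7 and the 5 adrenal cortex markers at or below 28.5, whereas the 6 fibroblast markers lay between 69.2 and 98.8. The 5 myeloid markers lay between 24.5 and 83.3, with PTPRC the highest, and the 2 measured blood markers at or below 32.2. The array is made for human RNA, ribosomal protein sequences are strongly conserved between human and mouse, and the share of the signal that came from host RNA was not measured. In a bulk tumour, fewer cells of a type and less RNA per cell cannot be told apart.

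After BL-8040, 51 of the 58 ribosomal protein genes had a lower mean than in controls, against 58.5% of all genes, and the differences were small. The median difference was -0.08 log2 units, or 0.943 times the control level, with an interquartile range from -0.12 to -0.03, while the median over all genes was -0.02. No member passed the test: 0 of 58 had a Benjamini-Hochberg adjusted p under 0.05 in limma, as had 0 of 18417 genes (0%), and the smallest adjusted p among the members was 0.644. At an unadjusted p under 0.05, 1 member was lower (5.08% of all genes) and 0 were higher (2.64% of all genes). In 10 members all 3 treated values lay below all 3 controls, or 17.2% against 9.05% of all genes, and in 0 members they lay above them (4.93% of all genes). For the median member the 95% interval was 0.176 log2 units wide on either side, so a shift of the size of the median was smaller than what these 3 arrays per group could resolve for a single gene.

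**Figure D1:**
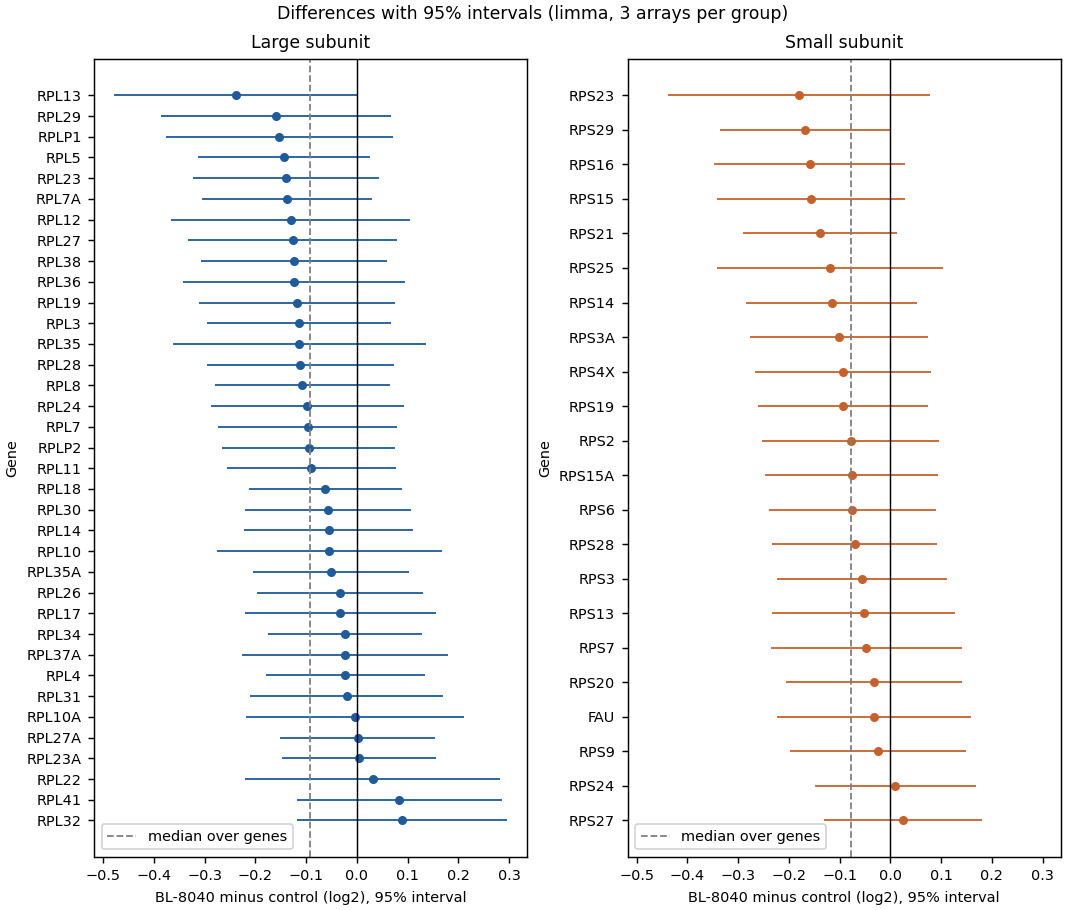
Each point is the BL-8040 minus control difference of 1 ribosomal protein gene on the log2 scale, with its 95% interval (limma, 3 arrays per group), for the 36 large and 22 small subunit genes; the dashed line is the median of the subunit. Most points lie left of 0, at medians of -0.09 and -0.08, and the interval of RPS29 alone excludes 0.

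The members with the largest differences of the large subunit lie in several parts of it. RPL13 encodes a protein of the subunit surface and hosts a small nucleolar RNA in its introns. It read 9.62, 9.60 and 9.25 against 9.67, 9.79 and 9.72; here and below, values are log2 signals of the BL-8040 tumours against those of the controls, each in the order of the replicate numbers. Its treated values all lay below the controls, 2 of them by a small margin and replicate 3 by far. The difference was -0.24 ± 0.11 (SE), or 0.848 times the control level (limma adjusted p = 0.646), and -0.12 without BL-8040 replicate 3. RPL29, whose protein also binds heparin, was 10.21, 10.17 and 9.88 against 10.20, 10.34 and 10.19, so replicate 1 lay among the controls (difference -0.16 ± 0.10, and -0.06 without replicate 3). RPL23, whose protein can bind the p53 regulator MDM2, was 6.85, 6.80 and 6.62 against 6.91, 6.86 and 6.92, and RPL7A 9.51, 9.56 and 9.39 against 9.60, 9.65 and 9.62. The groups of both did not overlap, by 0.0043 log2 units in RPL23, and the differences were -0.14 for each (-0.07 and -0.09 without BL-8040 replicate 3).

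The stalk of the large subunit, which draws elongation factors to the ribosome, is built from RPLP0, RPLP1 and RPLP2. RPLP1 stood at 11.75, 11.69 and 11.41 after BL-8040 and at 11.69, 11.80 and 11.82 in controls, a difference of -0.15 ± 0.10 (SE) that went to -0.05 without BL-8040 replicate 3. A second RPLP1 probe set of like signal read 11.74, 11.70 and 11.54 against 11.71, 11.72 and 11.74 (difference -0.07). RPLP2 read 11.97, 11.94 and 11.84 against 12.06, 12.05 and 11.93 (difference -0.10 ± 0.08). In both genes the groups overlapped, with replicate 3 as the lowest array, and without it RPLP2 differed by -0.05.

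RPL5 and RPL11 form, with 5S ribosomal RNA, the particle that can leave the assembly line and block MDM2. RPL5 was 11.95, 11.86 and 11.90 against 12.05, 12.13 and 11.97, and the difference was -0.14 ± 0.07 (SE; 0.905 times the control level, limma adjusted p = 0.658). RPL11 was 10.13, 10.14 and 10.14 against 10.19, 10.32 and 10.15, a difference of -0.09 ± 0.07. In neither gene was BL-8040 replicate 3 the lowest array, and without it the differences were -0.14 and -0.09, while without control replicate 2 that of RPL11 was -0.04. The treated values lay below all controls, by 0.01 log2 units in either gene. The RPL5 pattern did not extend to a second bright probe set of that gene, which read 11.65, 11.65 and 11.74 against 11.72, 11.73 and 11.60 (difference -0.01).

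RPL3, which reaches towards the catalytic centre, differed by -0.11 ± 0.08 (SE; 12.23, 12.15 and 12.02 against 12.19, 12.31 and 12.23), with replicate 3 lowest, overlapping groups and a difference of -0.06 without that array. RPL18 was among the members that varied least within groups (SD 0.028): it read 12.21, 12.21 and 12.18 against 12.26, 12.29 and 12.22, separate groups with a difference of -0.06 ± 0.07. RPL23A, near the exit of the tunnel, had a like spread and a difference of 0.0042, with 11.78, 11.77 and 11.74 against 11.78, 11.77 and 11.72. RPL35, another protein of the tunnel exit, stood at 10.57, 10.53 and 10.18 against 10.58, 10.58 and 10.45, so that its difference of -0.11 turned to 0.01 without BL-8040 replicate 3.

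The 5 large subunit genes without a lower mean were RPL32, RPL41, RPL22, RPL23A and RPL27A. RPL32 read 6.63, 6.55 and 6.32 against 6.39, 6.39 and 6.46 (difference 0.09 ± 0.09, SE). Its first 2 treated values were the highest and the last was the lowest, and without BL-8040 replicate 3 the difference was 0.18. RPL41, one of the smallest proteins of the cell, which bridges the subunits, was 11.83, 11.85 and 12.10 against 11.85, 11.80 and 11.88. It was the sole member with its highest value in BL-8040 replicate 3, and its difference of 0.08 ± 0.09 went to -0.0046 without that array. A dimmer RPL41 probe set went the other way, at 6.48, 6.35 and 6.11 against 6.66, 6.62 and 6.49 (difference -0.28). In that probe set BL-8040 replicate 3 was the lowest array. RPL22, known from losses in several cancers, was 5.17, 5.44 and 5.02 against 5.07, 5.21 and 5.26, a dim signal whose spread within groups (SD 0.165) exceeded its difference of 0.03.

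In the small subunit, RPS23, a protein of the decoding centre, had the most negative difference. Its values were 10.76, 10.75 and 10.36 after BL-8040 and 10.83, 10.86 and 10.73 in controls. The difference of -0.18 ± 0.11 (SE; limma adjusted p = 0.689) went to -0.05 without BL-8040 replicate 3, and the other treated values overlapped the controls. RPS29, a zinc-binding protein of the head of the subunit and one of the genes mutated in Diamond-Blackfan anaemia, was 6.61, 6.65 and 6.50 against 6.71, 6.81 and 6.75. Its groups did not overlap, and it was the 1 member with an unadjusted p under 0.05 (difference -0.17, 95% interval -0.34 to -0.0011, 0.890 times the control level, limma adjusted p = 0.644). RPS21 was 7.97, 7.90 and 7.89 against 8.07, 8.07 and 8.04 (difference -0.14 ± 0.07). Its groups were set apart by more than the spread within either, with an SD of 0.039 and 0.015. Without BL-8040 replicate 3 the difference of RPS29 and of RPS21 was -0.13.

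RPS16, whose tail touches the transfer RNA in the P site, read 10.31, 10.21 and 10.07 against 10.29, 10.40 and 10.37, and RPS15, also a protein of the head, 11.04, 11.03 and 10.90 against 11.22, 11.18 and 11.03. Both differed by -0.16 ± 0.08 (SE), with 2 treated values below all controls, and RPS16 by -0.09 without BL-8040 replicate 3. RPS25, which some viral and cellular messages need for internal initiation, was 11.80, 11.78 and 11.47 against 11.82, 11.75 and 11.83, and its difference of -0.12 went to -0.01 without BL-8040 replicate 3. RPS14 completed the 3 small subunit genes with separate groups, at 11.41, 11.36 and 11.23 against 11.44, 11.47 and 11.44 (difference -0.12 ± 0.07). RPL38, at 11.40, 11.41 and 11.19 against 11.45, 11.48 and 11.45, completed the 7 of the large subunit (difference -0.12). Without BL-8040 replicate 3 these differences were -0.06 for RPS14 and -0.05 for RPL38. RPS14, RPL38, RPL27A, RPL10A and RPS9 are named here because of their values.

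RPS6, the substrate of S6 kinase, stood at 10.62, 10.60 and 10.47 against 10.64, 10.66 and 10.62 (difference -0.07 ± 0.07, SE). RPS19, the gene most often mutated in Diamond-Blackfan anaemia, was 10.51, 10.52 and 10.38 against 10.51, 10.61 and 10.57 (-0.09 ± 0.07). Without BL-8040 replicate 3 the difference of RPS6 was -0.03 and that of RPS19 -0.05. RPS3, at the entry of the messenger RNA channel, was 12.29, 12.30 and 12.14 against 12.31, 12.29 and 12.30. In RPS3 the first treated arrays lay within the controls, and its difference of -0.06 went to -0.0030 without BL-8040 replicate 3. FAU, which makes a ubiquitin-like protein fused to a ribosomal protein, was 9.67, 9.62 and 9.46 against 9.59, 9.71 and 9.55, and its difference turned from -0.03 to 0.03 without that array. RPS27 (11.92, 11.80 and 11.87 against 11.84, 11.83 and 11.86) and RPS24 (8.996, 8.92 and 8.86 against 8.90, 8.91 and 8.94) were the small subunit genes without a lower mean, at differences of 0.02 and 0.0096.

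With 3 arrays in each group, 0.1 is the smallest p that a two-sided exact permutation test can reach. Any gene whose groups do not overlap reaches it, so this p restates the lack of overlap and adds no further evidence. It was reached by 10 members, all lower (RPL5, RPL7A, RPL11, RPL13, RPL18, RPL23, RPL38, RPS14, RPS21 and RPS29). Over all genes, 9.05% had treated values below all controls and 4.93% above them.

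**Figure D2:**
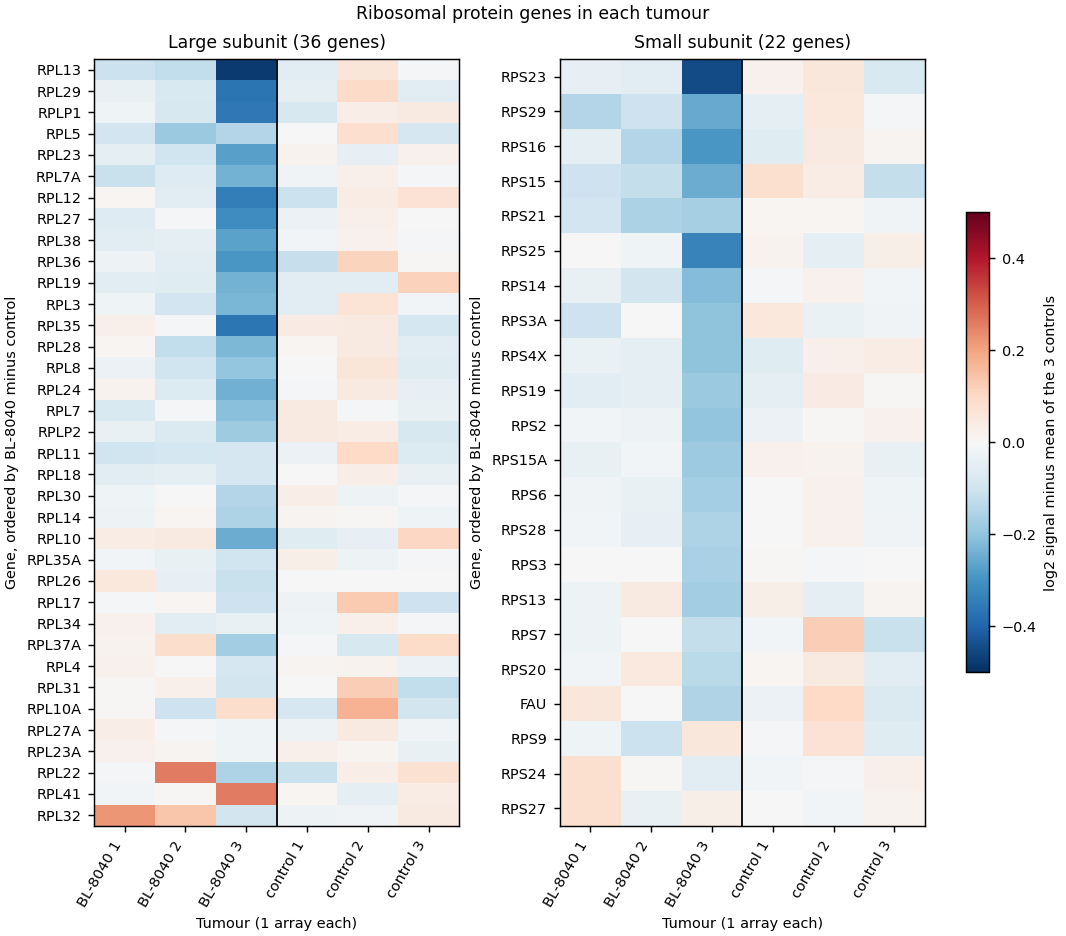
Each row is a ribosomal protein gene and each column 1 tumour, with the colour giving the log2 signal minus the mean of the 3 controls (blue lower, red higher), for the 36 large and 22 small subunit genes ordered by difference. The column of BL-8040 replicate 3 is blue in most rows, and RPL41, RPL10A, RPS9 and RPS27 are red there.

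The arrays did not share the lower levels evenly. Each gene was set against its own mean over the 6 arrays, and the median over the 58 genes was 0.02, 0.0011 and -0.14 for the BL-8040 tumours and 0.03, 0.07 and 0.02 for the controls. BL-8040 replicate 1 thus lay beside control replicate 3, and replicate 3 stood apart from the other 5 arrays. It held the lowest of the 6 values in 47 of 58 members, against 30.5% of all genes, while control replicate 2 held the highest in 29 of 58 (22.4% of all genes). BL-8040 replicate 3 lay below the mean of the other treated arrays in 53 of 58 genes, by a median of -0.15 log2 units.

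Without BL-8040 replicate 3 the median difference of the members went from -0.08 to -0.03 and the count with a lower mean from 51 to 42, against 54.6% of all genes. BL-8040 replicates 1 and 2 both lay below all controls in 10 members, the same genes as with all arrays, and in 13.5% of all genes. Of the 51 lower members, 42 moved towards or past 0 by over 1.5 times without BL-8040 replicate 3 (10 of them past 0), 11 without control replicate 2, and 0 to 3 without any other array.

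**Figure D3:**
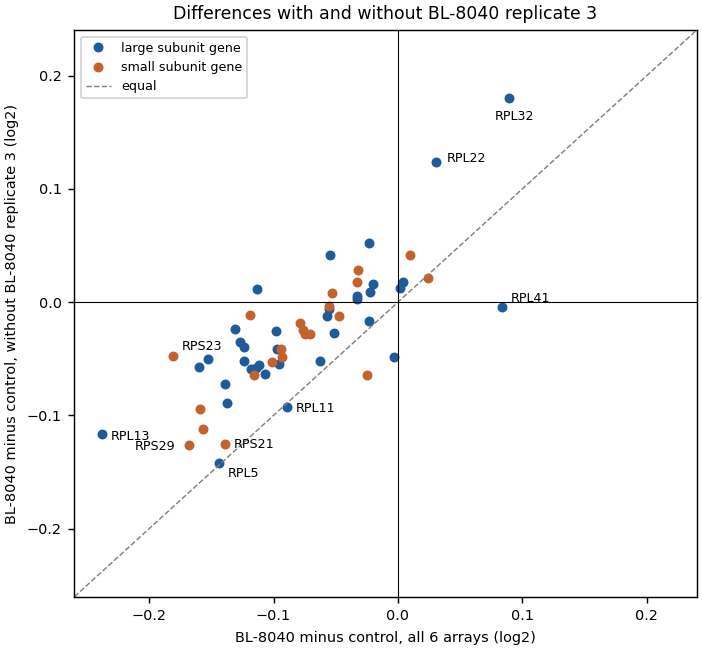
Each point is a ribosomal protein gene, with its BL-8040 minus control difference (log2) from all 6 arrays on the x axis and without BL-8040 replicate 3 on the y axis, and the dashed line marks equal values. Most points lie above the line, nearer to 0 without that array (median -0.03 against -0.08). RPL5 and RPL11 lie on the line, and RPL41, RPL10A and RPS9 lie below it.

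Signals of other genes in BL-8040 replicate 3 are set beside this. All 9 neuroblastoma markers had their lowest value there (TH at 7.53 against 8.70 to 9.32 in the other 5 arrays), with a list median of -0.21 against the mean of each gene, and their summed linear signal ranged from 6486 to 8853 in the treated and from 7820 to 8942 in the control arrays. By group mean 8 of the 9 were lower after BL-8040, against 58.5% of all genes. The other was MYCN, at 12.26, 12.34 and 12.10 against 12.22, 12.17 and 12.22 (difference 0.03). The summed signal of the 6 fibroblast markers ranged from 3974 to 4338 in the treated and from 3961 to 4114 in the control arrays. These markers were mixed in BL-8040 replicate 3. DCN (9.29) and PDGFRB (9.13) were lowest there, whereas COL1A1 (9.65), COL1A2 (8.15) and COL3A1 (9.37) were highest there. Their median deviation was smaller in that array (0.04) than in BL-8040 replicate 1 (0.09). For the 5 myeloid markers the sum ranged from 407 to 458 and from 401 to 420. For the 2 measured blood markers of 4 listed it ranged from 41.1 to 48.3 and from 39.1 to 44.8. These sums are ranges over each group and name no array. The part of these other signals in the result was not tested. Most members are bright (47 of 58 at or above percentile 95 of mean signal, a rank that depends on the probes as well as the transcript). The 874 other genes at or above percentile 95 had a median difference of -0.01, with 54.7% lower, and a median of -0.03 in BL-8040 replicate 3, where the 58 members stood at -0.14. The 47 members at or above that percentile had a median difference of -0.09, with 91.5% lower, and a median of -0.14 in that array.

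**Figure D4:**
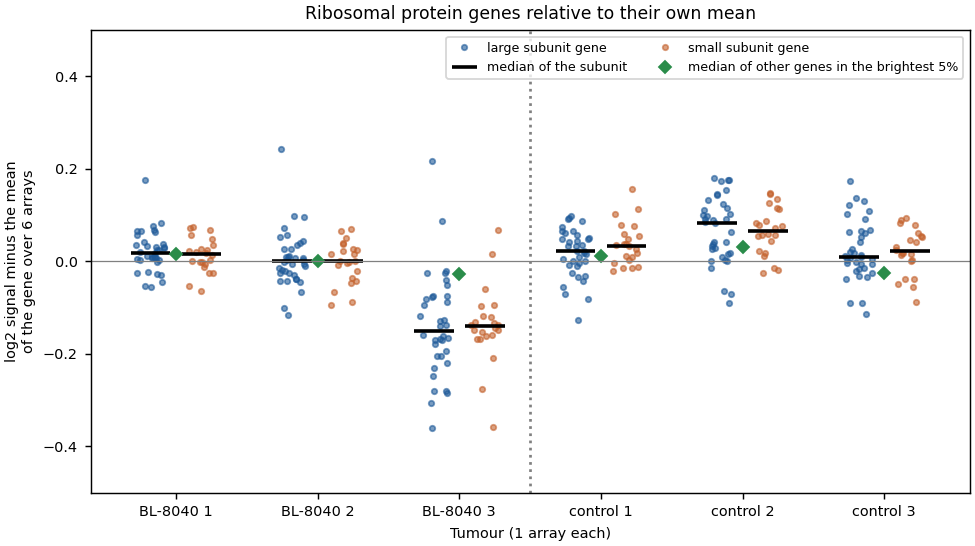
Points are the log2 signals of the 36 large and 22 small subunit genes minus the mean of the same gene over 6 arrays, by tumour; black bars are subunit medians and diamonds the median of the 874 other genes in the brightest 5%. In BL-8040 replicate 3 the large subunit stands at -0.15 and the small at -0.14, whereas the medians of the other 5 arrays run from 0.0010 to 0.08.

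Large and small subunit genes gave alike values. The median difference was -0.09 over the 36 large subunit genes, 31 of them lower, and -0.08 over the 22 small subunit genes, 20 of them lower, a gap of -0.01. The large subunit median in BL-8040 replicate 3 was -0.15 and that of the small subunit -0.14, and in none of the 6 arrays did they lie more than 0.02 log2 units apart. All 3 treated values lay below all controls in 7 of 36 large and 3 of 22 small subunit genes, against 9.05% of all genes. BL-8040 replicate 3 was the lowest array in 27 of 36 large and 20 of 22 small subunit genes, against 30.5% of all genes.

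**Figure D5:**
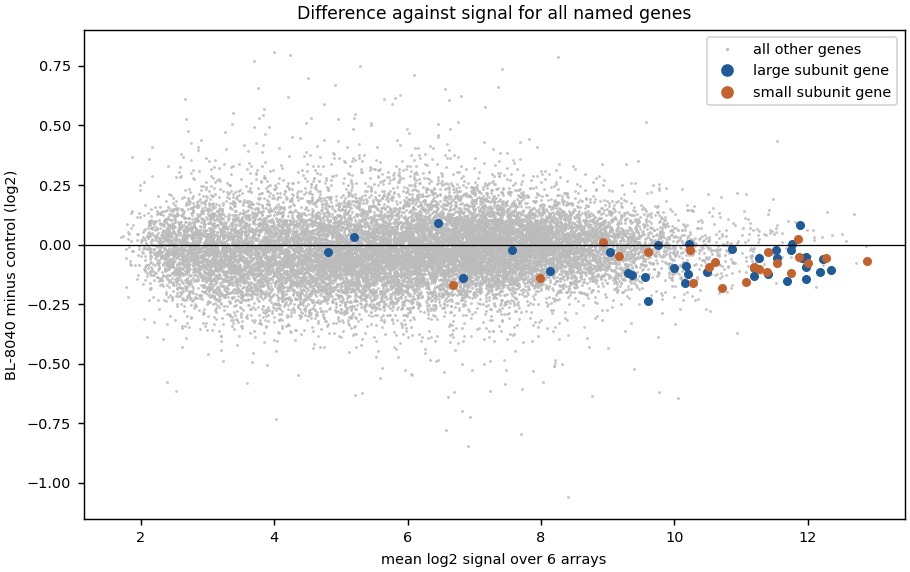
The BL-8040 minus control difference (log2) is plotted against the mean log2 signal over 6 arrays for each named gene, with large subunit genes in blue, small subunit genes in orange and all other genes in grey. Most ribosomal protein genes lie on the right, with 47 of 58 at or above percentile 95 of signal and 2 (RPL17 and RPL22) below the median gene. Their differences lie between -0.24 and 0.09, most of them below 0, and the 874 other genes in the brightest 5% had a median of -0.01.

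Further probe sets gave a second reading of some members. Of 21 genes with several probe sets of their own, 33 further probe sets were available, and 1, of RPL41, held the same 6 values as the brightest and was left out. Of the other 32, 22 had the sign of the brightest probe set of their gene (21 of the 29 with a signal in the upper range, above the median gene). Their median difference was -0.07. The 47 probe sets that carry a ribosomal protein symbol beside others, often pseudogenes or small nucleolar RNAs, had a median difference of -0.02, with 32 lower, against 55.4% of all probe sets with several symbols. Probe sets of one gene disagreed in places. A second RPL13 probe set was also lower (-0.21), whereas a dimmer one was higher (0.18). RPS9 read 10.23, 10.14 and 10.30 against 10.24, 10.32 and 10.19 in its brightest probe set (-0.02), and 9.32, 9.35 and 9.50 against 9.21, 9.23 and 9.13 in the other (0.20). Ribosomal protein genes have many processed pseudogenes, and how far these probe sets also read such copies is not known here, so values of single genes are uncertain to that extent.

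The paralogs of ribosomal protein genes, separate genes for a variant of the same protein, were split. Of 8 measured of 9 listed, 4 were higher and 4 lower, 0 at an unadjusted p under 0.05, and 3 had treated values above all controls (4.93% of all genes). RPS27L, a p53-induced variant of RPS27, read 5.25, 5.39 and 5.16 after BL-8040 and 5.13, 5.15 and 4.91 in controls (difference 0.20 ± 0.09, SE, limma adjusted p = 0.646). RPL39L, a variant found in testis and some tumours, read 7.12, 7.06 and 7.08 against 6.92, 6.97 and 6.92, with little spread in either group (0.15 ± 0.07, adjusted p = 0.646). RPL26L1 read 8.16, 8.22 and 8.17 against 8.15, 8.09 and 8.01 (0.10 ± 0.07). In these 3 genes BL-8040 replicate 3 did not stand apart, and without it the differences were 0.26, 0.15 and 0.10; without control replicate 3 those of RPS27L and RPL26L1 were 0.13 and 0.06. RPL36AL (0.03) and RPL22L1 (-0.02) had overlapping groups. RPL7L1, a factor of large subunit assembly, differed by -0.09, but by -0.02 with the mean of its 2 probe sets. RPL10L, the testis variant of RPL10, differed by -0.06 (-0.02 without control replicate 3). RPL3L, the striated muscle variant of RPL3, differed by -0.13 (-0.07 without BL-8040 replicate 3). The difference between a paralog and its parent gene was not tested.

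Other messages with a TOP motif, which encode elongation and initiation factors and related proteins, were mostly lower too. Of 17 measured of 18 listed, 13 were lower and 4 higher, against 58.5% lower over all genes. At an unadjusted p under 0.05 there were 0, and the median difference was -0.07. In 5 the treated values lay below all controls (9.05% of all genes), and in 1, EEF1A1, above them (4.93% of all genes). EEF1D, a subunit of the elongation factor 1 exchange complex, stood at 10.36, 10.33 and 10.07 against 10.35, 10.47 and 10.39 (difference -0.15 ± 0.09, SE). Its difference was 0.0057 with the mean of its 2 probe sets and -0.06 without BL-8040 replicate 3. EIF2S3, a subunit of the factor that brings the initiator transfer RNA, was 10.62, 10.63 and 10.47 against 10.63, 10.74 and 10.73, and EEF1G, another subunit of elongation factor 1, 12.13, 12.12 and 12.03 against 12.23, 12.22 and 12.14. Their differences were -0.13 and -0.10, with separate groups in both, and that of EIF2S3 was -0.07 without BL-8040 replicate 3. Again BL-8040 replicate 3 held the lowest value in 12 of 17 genes (30.5% of all genes). Without it the list median was -0.02 and 10 of 17 were lower, against 54.6% of all genes.

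Initiation factors that are not in the TOP list were evenly split, with 11 of 21 measured genes lower (of 23 listed), 0 at an unadjusted p under 0.05 and a median difference of -0.02, that of all genes. EIF3D, a cap-binding subunit of initiation factor 3, was 10.76, 10.77 and 10.54 against 10.79, 10.99 and 10.89 (difference -0.20 ± 0.09, SE, limma adjusted p = 0.646). EIF2S2, a subunit of initiation factor 2, was 8.61, 8.56 and 8.83 against 8.54, 8.49 and 8.32, so its treated values lay above the controls (0.22 ± 0.10, adjusted p = 0.646). EIF5, the activator of the GTPase of that factor, stood at 0.14 ± 0.09 with overlapping groups (0.08 without control replicate 3). Without BL-8040 replicate 3 EIF3D differed by -0.12 and EIF2S2 by 0.14.

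Of the 13 genes of the mTOR, S6 kinase and LARP1 list, 7 were lower and 6 higher, with a median difference of -0.03 and 0 at an unadjusted p under 0.05. LARP1 itself differed by 0.01 and MTOR by 0.08. DDIT4, a stress-induced inhibitor of mTOR, was 8.82, 8.94 and 8.28 against 8.76, 9.13 and 9.05, and its difference of -0.30 ± 0.17 (SE) went to -0.10 without BL-8040 replicate 3. RPS6KB1, which encodes S6 kinase 1, was 7.66, 7.58 and 7.81 against 7.53, 7.60 and 7.56 (0.12 ± 0.08), and TSC2, a brake on mTOR, differed by -0.12 ± 0.09. In all 3 the array farthest from the controls was BL-8040 replicate 3, without which RPS6KB1 differed by 0.05 and TSC2 by -0.04. Transcript levels do not report the activity of these kinases. Of 11 listed host genes of small nucleolar RNAs 1 was measured with a symbol of its own, ZFAS1 (-0.05 ± 0.08, and -0.0010 without BL-8040 replicate 3).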

How the data were processed

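RNA of each tumour was extracted with Trizol and labelled with biotin, per the labels' protocols. The authors deposited 1 table of log2 signals with a column for each array; the log2 scale is inferred from the range of its values (1.08 to 13.2). The submitters' processing notes name Partek 6.6. For background correction, normalization and probe summarization the method was not given in the sources used here. Titles gave each array's group and number.

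The platform annotation gave 1 symbol to 19460 of 33297 probe sets, several to 1754 and none to 12083. Per gene the brightest probe set by 6-array mean was kept (18417 genes), with no further normalization or filter. BL-8040 and control, 3 arrays each, were compared with lmFit and eBayes (limma 3.58.1, R 4.3.3), two-sided, with Benjamini-Hochberg adjustment over all genes. Differences are BL-8040 minus control, SE is the moderated standard error, and summed signals are sums of antilogs. Precision is limited by the number of arrays. Nothing in the labels pairs same-numbered mice, and deviations of same-numbered arrays correlated at -0.04, 0.02 and 0.08. The fit was tested on simulated data. Members, roles and lists were chosen with earlier results of these data known. Named were, per subunit, the 6 most negative and up to 3 most positive differences, members of set roles, those with the 3 largest and 3 smallest SD, all measured paralogs and the 3 smallest p of each list. Alternatives were the mean of probe sets, filters on dim genes (median signal, or log2 6), quantile normalization, median centring, robust moderation with a variance trend, array weights, a replicate block and leaving out each array. The reference tables hold mouse sequences, so none are printed for these human genes.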

Additional observations from a re-analysis of the deposited data

How the results depend on the processing

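With all 14 alternatives, 0 genes and 0 ribosomal protein genes were called in limma, with a smallest adjusted p over all genes between 0.224 and 0.896. The count of members lower at an unadjusted p under 0.05 was 1 as reported, against 5.08% of all genes. It was 3 of 56 with either filter on dim genes (3.93% of the genes kept by median signal, 3.96% by log2 6). With quantile normalization it was 5 of 58 (5.96% of all genes) and with the variance trend 7 (4.92%). Median centring (3.75%) and array weights (5.84%) gave 0. With 1 array left out the count lay between 0 and 2, against 3.14% to 6.16% of all genes. It was 0 without BL-8040 replicate 3, control replicate 1 or control replicate 2, and 2 without BL-8040 replicate 1 or control replicate 3. Members higher at that threshold numbered 1 without BL-8040 replicate 3 and 0 with the other alternatives. The share of all genes that were higher was not counted for these settings. The member median lay between -0.11 and -0.03 with 1 array left out, the latter without BL-8040 replicate 3, and was -0.05 with array weights, which gave that array the lowest weight (0.473). Median centring moved the share of lower genes from 58.5% to 51.0%, the member count from 51 to 49 and the member median to -0.06. With the replicate block, the member median was -0.08 and 51 members were lower, and the block changed no call. The large minus small subunit gap of -0.01 was 0.0029 with quantile normalization and between -0.0047 and 0.0016 with 1 array left out.

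Some differences changed sign, among them larger ones (EEF1D at -0.15, RPL35 at -0.11 and RPL41 at 0.08 as reported). With the mean of probe sets EEF1D was 0.0057, RPL23A -0.0087 and RPL41 -0.037; with quantile normalization RPL23A was -0.030 and RPS27 -0.0044; with median centring RPL22L1 was 0.0026. With 1 array left out the ranges crossed 0 for FAU (-0.076 to 0.029), RPL22 (-0.084 to 0.12), RPL22L1 (-0.17 to 0.066), RPL23A (-0.014 to 0.018), RPL35 (-0.18 to 0.011), RPL36AL (-0.024 to 0.086), RPL41 (-0.0046 to 0.13), RPS24 (-0.025 to 0.041) and RPS27 (-0.0037 to 0.054). The cause was not tested.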
